A study of Mus musculus with 24 samples.

Results

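The last sampled day of rotating culture was compared with the last sampled day of dissected static culture of mouse retinal organoids. The 6 libraries are those whose titles read RWB-D25 (replicates 1 to 3) and SSCd-D28 (replicates 1 to 3), of 24 in the series, and all genes of the deposited gene table entered. The organoids were grown from wild-type mouse embryonic stem cells by a modified HIPRO protocol. One line came from an Nrl-GFP transgenic mouse strain and the other was the R1 clone, and the labels do not say which library came from which. In both groups the optic cups, the pouches of the organoid that hold the neural retina, were cut out at day 10 (D10). They were then kept either floating in a dish (SSCd, dissected static suspension culture) or suspended in the slowly turning vessel of a rotating-wall bioreactor (RWB). Both were fed the same medium with N2, taurine, 9-cis retinal and IGF1, and from D18 both also received amino acids, B27 without vitamin A and 2% fetal bovine serum. RWB ended at D25 and SSCd at D28. Day and method therefore differ together and cannot be told apart in the endpoint difference, which is given throughout as RWB D25 minus SSCd D28.

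The retina's photoreceptors are rods, which work in dim light, and cones, which work in daylight and carry colour vision. Each type turns light into a change of cyclic GMP through its own transducin, phosphodiesterase and cyclic nucleotide-gated channel subunits, so rods and cones can be told apart by their transcripts. Rods hand their signal to ON bipolar cells, which read glutamate through the receptor encoded by Grm6. In mice, cones are born before birth, most rods around birth and bipolar cells among the last, and outer segment and synaptic genes come up later still.

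Replicate 1 of RWB D25 stood apart from the other endpoint libraries. Mitochondrially encoded genes took 13.09% of its counts, against 5.023% and 3.95% in its group and 2.865% to 3.771% in SSCd D28. Replicate 1 was also the highest of its group in RWB D22 (10.229%), SSCd D22 (8.26%) and SSCd D18 (9.572%). It was not the highest in SSCd D28 (3.693%) or RWB D18 (5.022%). The D22 libraries enter comparisons given below. Over tested genes whose mean log2 CPM reached 3, the log2 levels of RWB D25 replicate 1 correlated at 0.893 and 0.845 with its group mates. These correlated at 0.959 with each other. In SSCd D28 the correlations were 0.921 to 0.974, and replicate 3 was the most distant library. Total estimated counts were 13900055 to 17580893 per library. Levels below are CPM (counts relative to library size, TMM-scaled), always in the order of replicates 1, 2 and 3. CPM are not per length, so levels are not compared between genes. Each main result is given with and without RWB D25 replicate 1.

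Of 16792 genes tested, 513 differed between the endpoints (3.06%; edgeR quasi-likelihood test, Benjamini-Hochberg adjusted p under 0.05, "called" from here on), 186 of them higher in RWB D25 (1.11%) and 327 lower (1.95%). With the replicate number as a block 997 genes were called, 434 higher and 563 lower, and with the 6 endpoint libraries fitted alone 39, 13 higher and 26 lower. Without RWB D25 replicate 1 the counts were 64 higher and 128 lower, and over the 6 fits that left out 1 endpoint library they came to 192 to 637 in all (305 without SSCd D28 replicate 1 and 295 without its replicate 2). In 157 of the 513 genes (30.6%) the call and its direction held in all 6 of those fits. Levels of the 6 libraries did not overlap between the groups in 3066 genes tested (18.3%; 1379 higher, 8.21%, and 1687 lower, 10%) and in 499 of the 513 called. Genes named for the steepest differences were taken only from called genes whose groups did not overlap. For all genes named by that rule, separation of the groups was thus set by the choice and adds no evidence. They include Gnat2, Opn1sw, Guca1a, Cngb3, Pde6h, Slc24a1, Pfkp, Cox4i2, Ndufa4l2, Pcdh15, Rgs11, Dhrs3, Krt18, Plk5, Glb1l2, Kcnj14 and Kcne2. Nearly all other called genes were separate too. Where separation of a called gene is given below, it describes the levels and adds no evidence. The median log2 fold change of all genes tested was -0.003. As a guide to a common day, RWB D25 was also compared with the mean of the log2 levels of SSCd D22 and SSCd D28, which is the static level at D25 if levels move in a straight line between those days. This interpolated difference called 906 genes (5.4%), 391 higher (2.33%) and 515 lower (3.07%), and 432 without RWB D25 replicate 1. It shares the RWB D25 and SSCd D28 libraries with the endpoint difference and is no separate evidence of it.

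**Figure D1:**
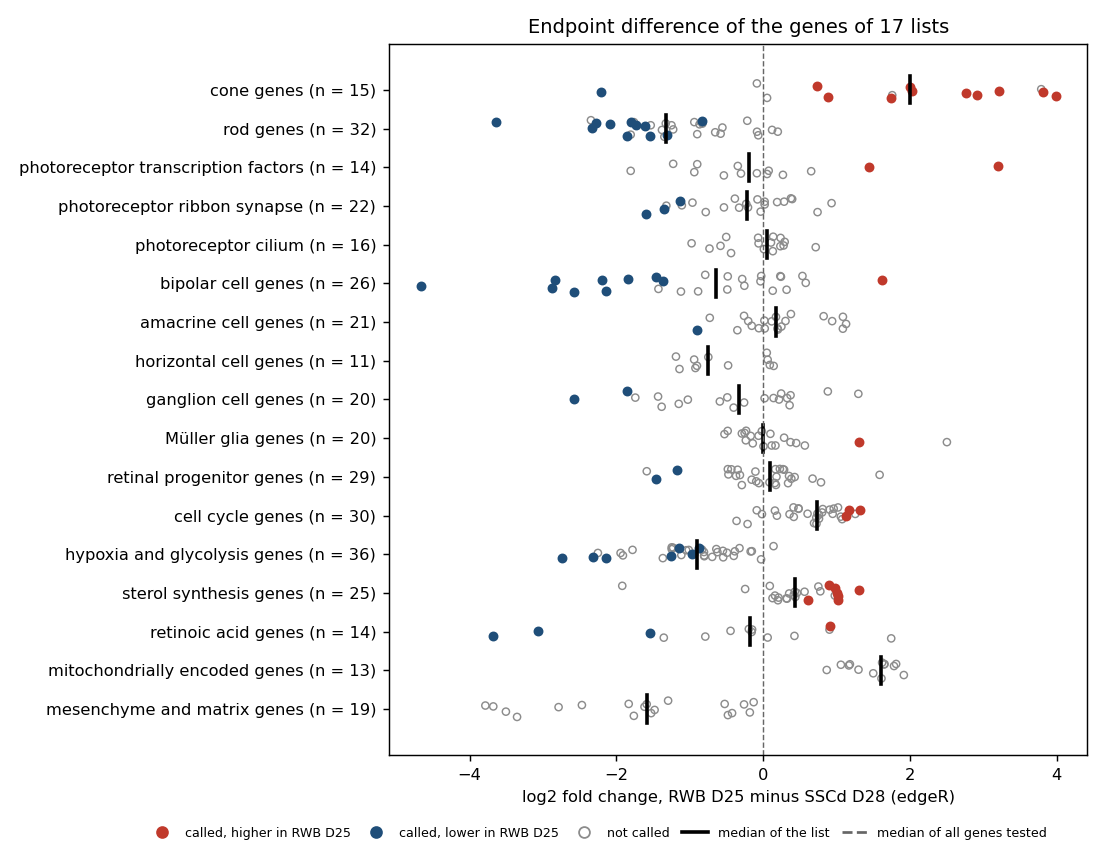
Endpoint log2 fold change (x axis) of each tested gene of 17 lists (y axis), each point 1 gene. Filled points passed edgeR's test, red higher and blue lower in RWB D25, black bars are list medians and the dashed line is the median of all genes tested. The cone median lies at 2.00 and the rod median at -1.32.

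Most cone genes were higher in RWB D25. Of the 15 on the list, 10 were called higher and 1 lower, with a median log2 fold change of 2.00. In bulk RNA a difference in the number of cells of a type cannot be told apart from a difference in RNA per cell, here or for any cell type below. Gnat2, the alpha subunit of cone transducin (chr3:108092789-108101432, GRCm38), stood at 228, 83.3 and 86.7 CPM in the RWB libraries and 9.75, 10.3 and 4.99 CPM in the SSCd libraries, a 15.9-fold difference (log2 fold change 3.99 ± 0.49, edgeR adjusted p = 0.00019). Opn1sw, the short-wavelength opsin, was at 64.2, 115 and 128 CPM in the RWB libraries and 13.1, 15.9 and 4.17 CPM in the SSCd libraries (log2 fold change 3.21 ± 0.51, edgeR adjusted p = 0.00139). Both genes were higher in every RWB library than in any SSCd library, and Gnat2 was highest in RWB replicate 1 while Opn1sw was lowest there.

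Further members of the cone phototransduction chain lay the same way. Guca1a, a calcium sensor that drives cyclic GMP synthesis and is used by rods too, had 45.8, 26.4 and 29.8 against 1.54, 4.3 and 1.37 CPM (log2 fold change 3.81 ± 0.56, edgeR adjusted p = 0.000679). Cngb3, a subunit of the cone cyclic nucleotide-gated channel, had 175, 84.8 and 59.5 against 15.8, 18.9 and 12.1 CPM (log2 fold change 2.77 ± 0.41, edgeR adjusted p = 0.000679). Arr3, cone arrestin, had 10.4, 21.6 and 19.9 against 2.79, 4.48 and 5.4 CPM (log2 fold change 2.04 ± 0.38, edgeR adjusted p = 0.00484). In all 3 genes the 2 groups were separate. Pde6h, the inhibitory subunit of the cone phosphodiesterase, had 34.6, 10.8 and 36.3 against 4.16, 4.48 and 2.12 CPM (log2 fold change 2.92 ± 0.60, edgeR adjusted p = 0.00977), and its catalytic partner Pde6c had 53.3, 31.7 and 46 against 15.6, 14.8 and 2.32 CPM (log2 fold change 2.00 ± 0.48, edgeR adjusted p = 0.0274). Cnga3, the other cone channel subunit, had 8.25, 3.43 and 5.34 against 0.913, 1.97 and 2.19 CPM (log2 fold change 1.74 ± 0.42, edgeR adjusted p = 0.0293). The groups were separate in these 3 genes too, and SSCd replicate 3 was the lowest library for Pde6h and Pde6c. Gnb3, the cone transducin beta subunit, which ON bipolar cells also use, differed less (1385, 978 and 1157 against 734, 663 and 518 CPM, log2 fold change 0.88 ± 0.21, edgeR adjusted p = 0.0294), as did Ccdc136 (227, 332 and 329.9 against 192, 171 and 169 CPM, log2 fold change 0.74 ± 0.17, edgeR adjusted p = 0.0189).

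The cone list did not move as a whole. Thrb and Rxrg, nuclear receptors that set the type of cone opsin, were not called (93.8, 70.8 and 69.9 against 93.5, 77.5 and 54.9 CPM and 38.8, 13.6 and 29.8 against 31, 26.3 and 29.8 CPM; log2 fold changes 0.05 and -0.09, edgeR adjusted p = 0.944 and 0.924). Gngt2, the cone transducin gamma subunit, had 1838, 565 and 642 against 330, 312 and 257 CPM and just missed the threshold (log2 fold change 1.76 ± 0.48, edgeR adjusted p = 0.0522), but passed it with the replicate block (adjusted p = 0.00817). Opn1mw, the medium-wavelength opsin, was low, at 0.159, 0.125 and 3.31 against 0, 0.239 and 0 CPM, and was not called (edgeR adjusted p = 0.185). Kcne2, a potassium channel subunit that is also on the choroid plexus list, went the other way (27.7, 39.4 and 25.2 against 59.1, 170.2 and 199.5 CPM, log2 fold change -2.22 ± 0.43, edgeR adjusted p = 0.00628). Without RWB D25 replicate 1 the cone count was 7 higher, with a median of 1.81, and it was 7 to 10 over the 6 left-out fits and 3 with the 6 endpoint libraries fitted alone. With 1 endpoint library left out at a time, Gnat2, Guca1a, Cngb3, Opn1sw, Arr3 and Kcne2 passed in every one of the 6 fits. The call was lost for Pde6h without SSCd D28 replicate 3 (highest adjusted p 0.0509); Pde6c without RWB D25 replicate 1 (highest adjusted p 0.113). Further losses were Cnga3 without RWB D25 replicate 1 or SSCd D28 replicates 1 or 2 (highest adjusted p 0.167); Gnb3 without RWB D25 replicate 1 or SSCd D28 replicates 2 or 3 (highest adjusted p 0.167). Others lost were Ccdc136 without RWB D25 replicates 2 or 3 or SSCd D28 replicates 2 or 3 (highest adjusted p 0.0704).

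Against the interpolated static level 8 cone genes were called higher and 1 lower, with a median of 2.00. Gnat2 differed by 3.33 ± 0.37 on the log2 scale there (edgeR adjusted p = 4.36e-05) and Opn1sw by 2.18 ± 0.39 (adjusted p = 0.00191). Pde6c and Ccdc136 were not called in it (1.03 and 0.40, edgeR adjusted p = 0.136 and 0.113). Across days the cone genes did not share a course. Gnat2 and Cngb3 had similar means in both methods at D18 and lower ones at each later day in SSCd, whereas Arr3 was highest in RWB at D25. Opn1sw in SSCd was higher at D22 than at D28, with all 3 D22 libraries above all 3 D28 libraries.

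**Figure D2:**
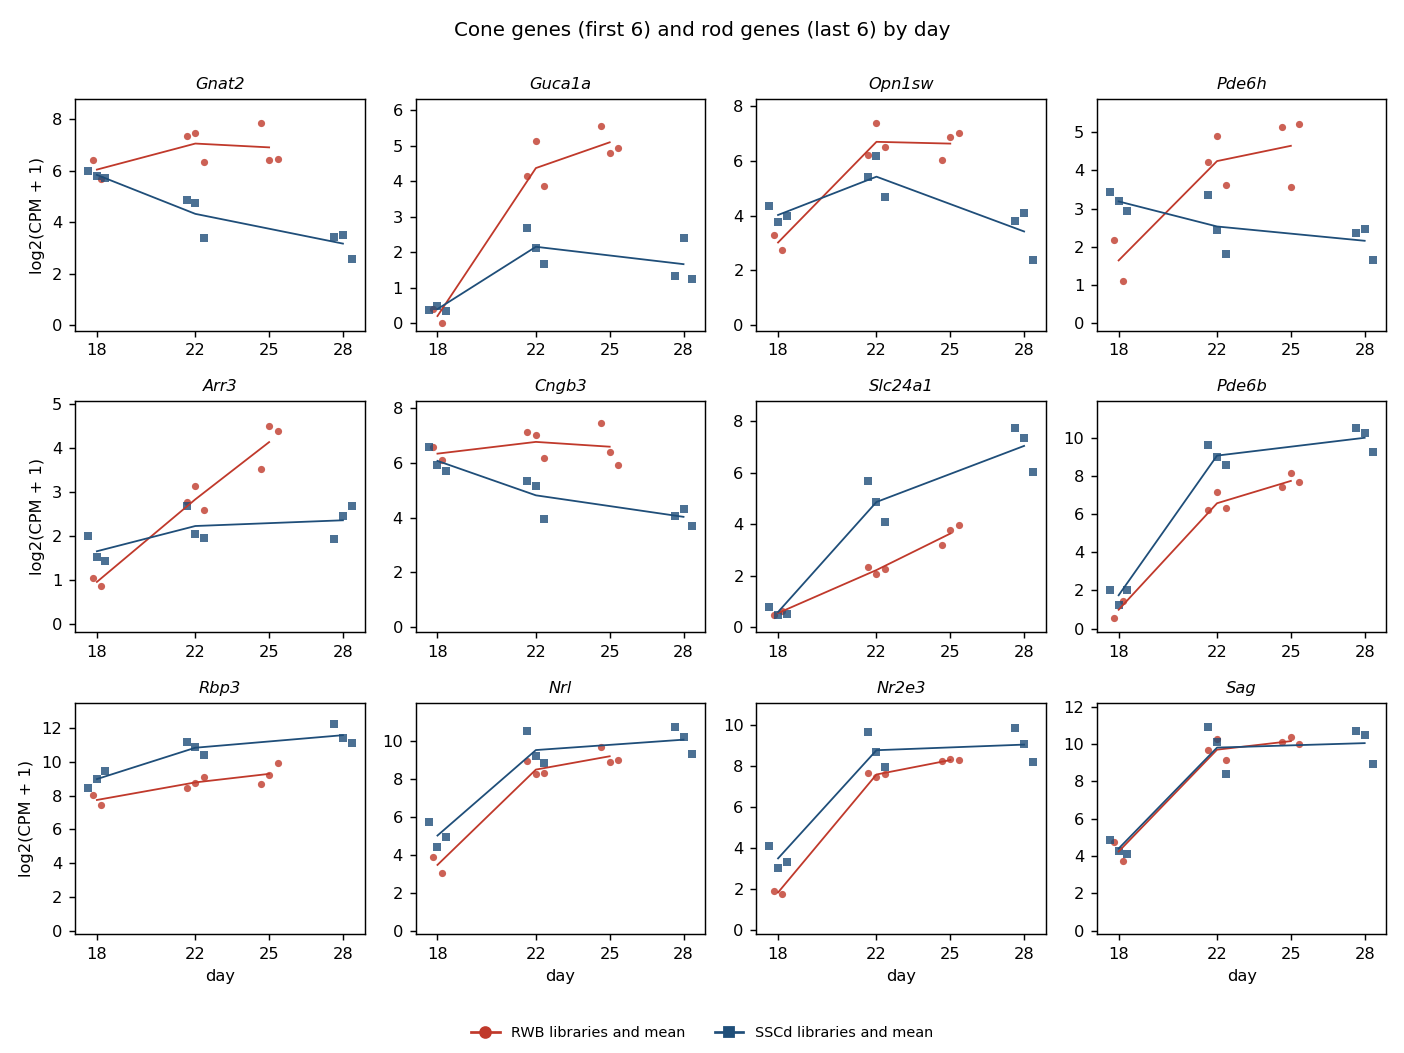
Levels of 6 cone and 6 rod genes, as log2(CPM + 1) on the y axis, against day on the x axis. Points are libraries, lines join group means, red circles are RWB and blue squares SSCd. Gnat2 in SSCd lies between 4.99 and 10.3 CPM at D28 and RWB at D25 between 83.3 and 228 CPM, while the Sag points of both methods overlap.

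A part of the rod genes was lower in RWB D25. Of 32 rod genes, 11 were called lower and none higher, with a median log2 fold change of -1.32. The list also holds genes that are not restricted to rods. Among those called these were at least Kcnv2, Rbp3, Prph2, Abca4, Impg1, Impg2 and Gnb1. The count is therefore not one of rod-specific genes. Nrl, Nr2e3, Sag and Gnat1 were not called, as given below. Slc24a1, the rod sodium-calcium exchanger that clears calcium from the outer segment (chr9:64922861-64951607, GRCm38), was at 8.09, 12.7 and 14.5 CPM in the RWB libraries and 215, 161 and 64.4 CPM in the SSCd libraries, 12.4-fold lower in RWB (log2 fold change -3.64 ± 0.40, edgeR adjusted p = 6.73e-05). Pde6b, a catalytic subunit of the rod phosphodiesterase, was at 168, 279 and 202 against 1460, 1202 and 597 CPM (log2 fold change -2.33 ± 0.42, edgeR adjusted p = 0.00342). Every RWB library was below every SSCd library for both genes, and SSCd replicate 3 was the lowest of the static libraries.

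Genes of the outer segment and of the matrix around it made up most of the others. Rbp3, which carries retinoids between photoreceptors and the pigment epithelium, had 414, 595 and 985 against 4764, 2729 and 2172 CPM (log2 fold change -2.28 ± 0.36, edgeR adjusted p = 0.0014). Prph2, a rim protein of outer segment discs, had 303, 539 and 401 against 1998, 1353 and 785 CPM (log2 fold change -1.74 ± 0.37, edgeR adjusted p = 0.0118). Abca4, the disc-rim transporter of retinoids, had 147, 179 and 200.2 against 674, 669 and 259 CPM (log2 fold change -1.60 ± 0.28, edgeR adjusted p = 0.00319). None of these 3 overlapped between the groups. Impg1 and Impg2, proteoglycans of the matrix between photoreceptors, had 31.9, 37.4 and 26.5 against 137, 146 and 50.8 CPM (log2 fold change -1.80 ± 0.46, edgeR adjusted p = 0.0389) and 230.1, 248 and 255 against 856, 732 and 547 CPM (log2 fold change -1.54 ± 0.24, edgeR adjusted p = 0.00139). Kcnv2, a potassium channel subunit of both photoreceptor types, had 34.4, 44.9 and 52.9 against 224, 169.6 and 84.9 CPM (log2 fold change -1.86 ± 0.28, edgeR adjusted p = 0.000957). Reep6, which serves rod membrane trafficking, Nxnl1, a rod-derived cone viability factor, and Gnb1, the rod transducin beta subunit, were called with log2 fold changes of -2.08, -1.31 and -0.83 (edgeR adjusted p = 0.00677, 0.0449 and 0.0364).

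Nrl, the transcription factor that sets rod fate, was at 812, 471 and 500.2 CPM in the RWB libraries and 1649, 1144 and 624 CPM in the SSCd libraries and was not called (log2 fold change -0.94 ± 0.41, edgeR adjusted p = 0.237). SSCd replicate 3 lay inside the RWB range. Its target and partner Nr2e3 had 302, 315 and 307 against 897, 534 and 293 CPM (log2 fold change -0.90 ± 0.41, edgeR adjusted p = 0.258), and again SSCd replicate 3 lay below the RWB libraries. Sag, rod arrestin, had 1100, 1334 and 1020 against 1697, 1427 and 494 CPM (log2 fold change -0.07 ± 0.47, edgeR adjusted p = 0.96), and the groups overlapped. Gnat1, the rod transducin alpha subunit, had 25.4, 45.8 and 37.7 against 137, 109.5 and 26.7 CPM (log2 fold change -1.33 ± 0.47, edgeR adjusted p = 0.143), with SSCd replicate 3 at the level of the RWB libraries. That these genes missed the threshold does not show that their levels were alike. The summed level of the 32 genes was 9763 to 15360 CPM in RWB and 12400 to 31120 CPM in SSCd, so the groups overlapped on it.

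Without RWB D25 replicate 1, or without SSCd D28 replicate 1, the rod count was 7. In the first case the list had a median of -1.27, and without SSCd D28 replicate 3 the count was 14 (7 to 14 over the 6 left-out fits, and 1 with the 6 endpoint libraries alone). Slc24a1, Pde6b, Rbp3, Reep6, Kcnv2, Abca4 and Impg2 passed in all 6 fits that left out 1 endpoint library. Calls lost were those of Prph2 without RWB D25 replicate 1 or SSCd D28 replicate 1 (highest adjusted p 0.0778); Impg1, Nxnl1 and Gnb1 without RWB D25 replicates 1, 2 or 3 or SSCd D28 replicates 1 or 2 (highest adjusted p 0.134, 0.209 and 0.157). In the interpolated comparison 7 rod genes were lower and none higher, with a median of -0.58. They were Slc24a1 (-2.52, adjusted p = 0.00037 by edgeR), Kcnv2 (-1.48, adjusted p = 0.00149), Rbp3 (-1.88, adjusted p = 0.00174), Impg2 (-1.15, adjusted p = 0.00321), Pde6b (-1.84, adjusted p = 0.00551), Abca4 (-0.94, adjusted p = 0.0308) and Reep6 (-1.29, adjusted p = 0.0413). Gnat1 had the opposite sign in it (0.42, adjusted p = 0.613).

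Most transcription factors of photoreceptors were not called. Crx, which activates rod and cone genes alike, was at 1637, 1608 and 1408 against 1779, 1512 and 1125 CPM (log2 fold change 0.07 ± 0.26, edgeR adjusted p = 0.914), and Otx2, which acts upstream of it, at 768, 693 and 571 against 502, 437 and 353 CPM (log2 fold change 0.65 ± 0.23, edgeR adjusted p = 0.136). Neither was called, though the groups did not overlap for Otx2. Of 14 such factors, 2 were called by edgeR, both higher in RWB (14.3%, against 3.06% of all genes tested). DESeq2 called 2 higher and 2 lower, and 8 of the 14 had a negative log2 fold change. Sall3, a zinc-finger factor that promotes cone gene expression, was at 14, 8.47 and 15.7 CPM in the RWB libraries and 1.65, 0.957 and 1.5 CPM in the SSCd libraries (log2 fold change 3.21 ± 0.41, edgeR adjusted p = 0.000252). Prdm1, which holds young photoreceptors back from the bipolar fate, was at 177, 249.7 and 188 CPM in the RWB libraries and 102, 72.6 and 51.7 CPM in the SSCd libraries (log2 fold change 1.44 ± 0.24, edgeR adjusted p = 0.00194). The call held for Sall3 and Prdm1 whichever endpoint library was left out. Among 22 genes of the photoreceptor ribbon synapse 3 were lower and none higher (13.6% called, against 3.06% of all genes tested). Cacna2d4, a calcium channel subunit of the terminal, had 84.6, 71.3 and 89.9 against 275, 277 and 193 CPM (log2 fold change -1.60 ± 0.21, edgeR adjusted p = 0.000261). Slc17a7, the vesicular glutamate transporter, had 195, 143 and 186 against 608, 434 and 289 CPM (log2 fold change -1.35 ± 0.33, edgeR adjusted p = 0.0316), and Lrit2 had 19.6, 24.7 and 20.8 against 50.1, 56.3 and 35.8 CPM (log2 fold change -1.13 ± 0.21, edgeR adjusted p = 0.00555). Leaving out any 1 endpoint library kept the call of Cacna2d4 and Lrit2. Lost in turn were the calls of Slc17a7 without RWB D25 replicates 1, 2 or 3 or SSCd D28 replicates 1 or 2 (highest adjusted p 0.138). Of 16 genes of the photoreceptor cilium none was called by edgeR, with a median log2 fold change of 0.06. With the block 1 cilium gene was higher and 1 lower, and DESeq2 called 2 lower.

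Promoter sequence is shown for called cone, rod and hypoxia genes, since nearly all called members of each list lay in one direction (Kcne2 was the exception). Of the called genes, 7 cone genes that were higher, 9 rod genes that were lower and 7 hypoxia and glycolysis genes that were lower (described below) had a RefSeq promoter for GRCm38.p6. The 250 bases before the start were searched on both strands for TAATCC, the core bound by photoreceptor homeodomain factors such as Crx, and for ACGTG, the core of the hypoxia response element. TAATCC was found in 2 of the 7 cone promoters (28.6%; Gnat2 and Guca1a), in 2 of the 9 rod promoters (22.2%; Abca4 and Rbp3) and in 2 of the 7 hypoxia and glycolysis promoters (28.6%; Aldoc and Pfkp), against 5.4% of 12213 promoters of genes tested. ACGTG was found in 1 of 7 (14.3%), 1 of 9 (11.1%) and 4 of 7 (57.1%; Egln1, Egln3, Pgam1 and Pgk1) of them, against 20.4%. TAATCC was thus found both among genes that were higher and among genes that were lower. The 250 bases are printed 5′ to 3′ on the gene's strand for 5 of these genes, with TAATCC (first 3) or ACGTG (last 2) in capitals on either strand.
Guca1a, chr17:47400607-47400856, strand -: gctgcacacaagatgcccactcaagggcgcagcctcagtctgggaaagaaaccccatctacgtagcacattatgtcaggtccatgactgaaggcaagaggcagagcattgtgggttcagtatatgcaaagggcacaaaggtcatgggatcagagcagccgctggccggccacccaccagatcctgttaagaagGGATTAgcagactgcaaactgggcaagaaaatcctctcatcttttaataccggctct
Rbp3, chr14:33953753-33954002, strand +: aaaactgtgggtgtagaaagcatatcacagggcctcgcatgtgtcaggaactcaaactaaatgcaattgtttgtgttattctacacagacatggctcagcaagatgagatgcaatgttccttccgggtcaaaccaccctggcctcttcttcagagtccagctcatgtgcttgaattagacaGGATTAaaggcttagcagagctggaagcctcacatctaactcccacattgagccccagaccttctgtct
Abca4, chr3:122044210-122044459, strand +: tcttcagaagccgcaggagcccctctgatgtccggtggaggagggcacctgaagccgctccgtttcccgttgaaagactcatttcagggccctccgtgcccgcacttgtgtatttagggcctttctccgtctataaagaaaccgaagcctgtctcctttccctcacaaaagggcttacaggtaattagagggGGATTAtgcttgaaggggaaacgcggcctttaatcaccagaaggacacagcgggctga
Egln3, chr12:54203875-54204124, strand -: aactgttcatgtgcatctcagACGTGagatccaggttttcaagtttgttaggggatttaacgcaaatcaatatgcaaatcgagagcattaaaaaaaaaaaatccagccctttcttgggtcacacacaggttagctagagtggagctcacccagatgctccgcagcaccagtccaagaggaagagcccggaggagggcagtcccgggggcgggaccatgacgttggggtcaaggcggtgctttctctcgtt
Pgk1, chrX:106186850-106187099, strand +: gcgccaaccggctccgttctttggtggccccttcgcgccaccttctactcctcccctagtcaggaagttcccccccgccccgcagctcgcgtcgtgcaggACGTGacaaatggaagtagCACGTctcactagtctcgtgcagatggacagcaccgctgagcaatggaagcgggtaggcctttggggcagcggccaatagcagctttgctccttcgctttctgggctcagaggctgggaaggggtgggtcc

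Some bipolar cell genes were lower at the endpoint. Of 26, 9 were called lower and 1 higher, with a median of -0.64. Grm6, the receptor through which they sense photoreceptor glutamate, was at 2.3, 8.66 and 11.8 CPM in the RWB libraries and 20.2, 42.1 and 42.7 CPM in the SSCd libraries (log2 fold change -2.19 ± 0.43, edgeR adjusted p = 0.00688). Vsx1, a transcription factor of cone bipolar cells, was at 0.238, 0.249 and 1.66 CPM in the RWB libraries and 3.94, 6.22 and 6.36 CPM in the SSCd libraries (log2 fold change -2.88 ± 0.55, edgeR adjusted p = 0.00587). Bhlhe23, a transcription factor needed for rod bipolar cells, was at 0.0793, 0.436 and 0.908 CPM in the RWB libraries and 4.68, 9.27 and 24.7 CPM in the SSCd libraries (log2 fold change -4.67 ± 0.82, edgeR adjusted p = 0.00319). RWB replicate 1 was the lowest library for all 3, and no RWB library reached the lowest SSCd library.

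Scgn, a calcium-binding protein of cone bipolar cells, had 3.41, 2.18 and 2.94 against 9.75, 16 and 25.4 CPM (log2 fold change -2.58 ± 0.35, edgeR adjusted p = 0.000328), and Rgs11, which speeds the turning-off of the Grm6 cascade, had 4.12, 17.4 and 20.7 against 82.6, 117 and 103 CPM (log2 fold change -2.83 ± 0.46, edgeR adjusted p = 0.00157). Nyx, which anchors the channel of the same cascade, and Gng13, a G-protein gamma subunit in it, were called at -1.84 and -1.36 (edgeR adjusted p = 0.0256 and 0.0374), and the homeobox gene Sebox at -2.15 (adjusted p = 0.0361). Lhx4, a factor of developing cones and bipolar cells, was higher in RWB (163, 114 and 112 against 36.3, 35 and 55.8 CPM, log2 fold change 1.61 ± 0.34, edgeR adjusted p = 0.0101). Prkca and Cabp5, common markers of rod bipolar cells and of bipolar subtypes, were not called (168, 142 and 147 against 112, 117 and 160.2 CPM and 44.7, 22.4 and 25.4 against 11.8, 26.3 and 23.7 CPM; log2 fold changes 0.23 and 0.58, edgeR adjusted p = 0.493 and 0.51). With 1 endpoint library left out at a time, Scgn, Rgs11, Bhlhe23, Vsx1 and Grm6 passed in every one of the 6 fits. Single left-out libraries ended the call of Nyx without RWB D25 replicates 1, 2 or 3 or SSCd D28 replicates 2 or 3 (highest adjusted p 0.136); Sebox without RWB D25 replicates 1, 2 or 3 or SSCd D28 replicates 1 or 2 (highest adjusted p 0.0971). It was also lost for Gng13 without RWB D25 replicates 2 or 3 or SSCd D28 replicates 2 or 3 (highest adjusted p 0.163); Lhx4 without RWB D25 replicate 1 or SSCd D28 replicates 1 or 2 (highest adjusted p 0.0725). The list count was 6 to 8 over those fits, 6 without RWB D25 replicate 1 and 0 with the 6 endpoint libraries alone.

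Fewer bipolar genes were lower against the interpolated static level. In the interpolated comparison 3 bipolar genes were lower, among them Rgs11 (-2.63, adjusted p = 0.000982 by edgeR) and Scgn (-1.09, adjusted p = 0.0424), and 3 were higher, Lhx4 (1.85, adjusted p = 0.000454), Prkca (0.79, adjusted p = 0.00214) and Cabp5 (1.53, adjusted p = 0.0164), with a median of -0.16. Grm6 lay on the other side of 0 and was not called (0.70 ± 0.38, edgeR adjusted p = 0.32), and Bhlhe23 was not called either (-1.15, adjusted p = 0.533). At D22 Grm6 had 0.387 ± 0.259 CPM in RWB and 0.627 ± 0.0625 CPM in SSCd (SD, n = 3 each). The SSCd level of Grm6 at D28 was thus far above that at D22, and the interpolated level rests on a straight line between those days.

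**Figure D3:**
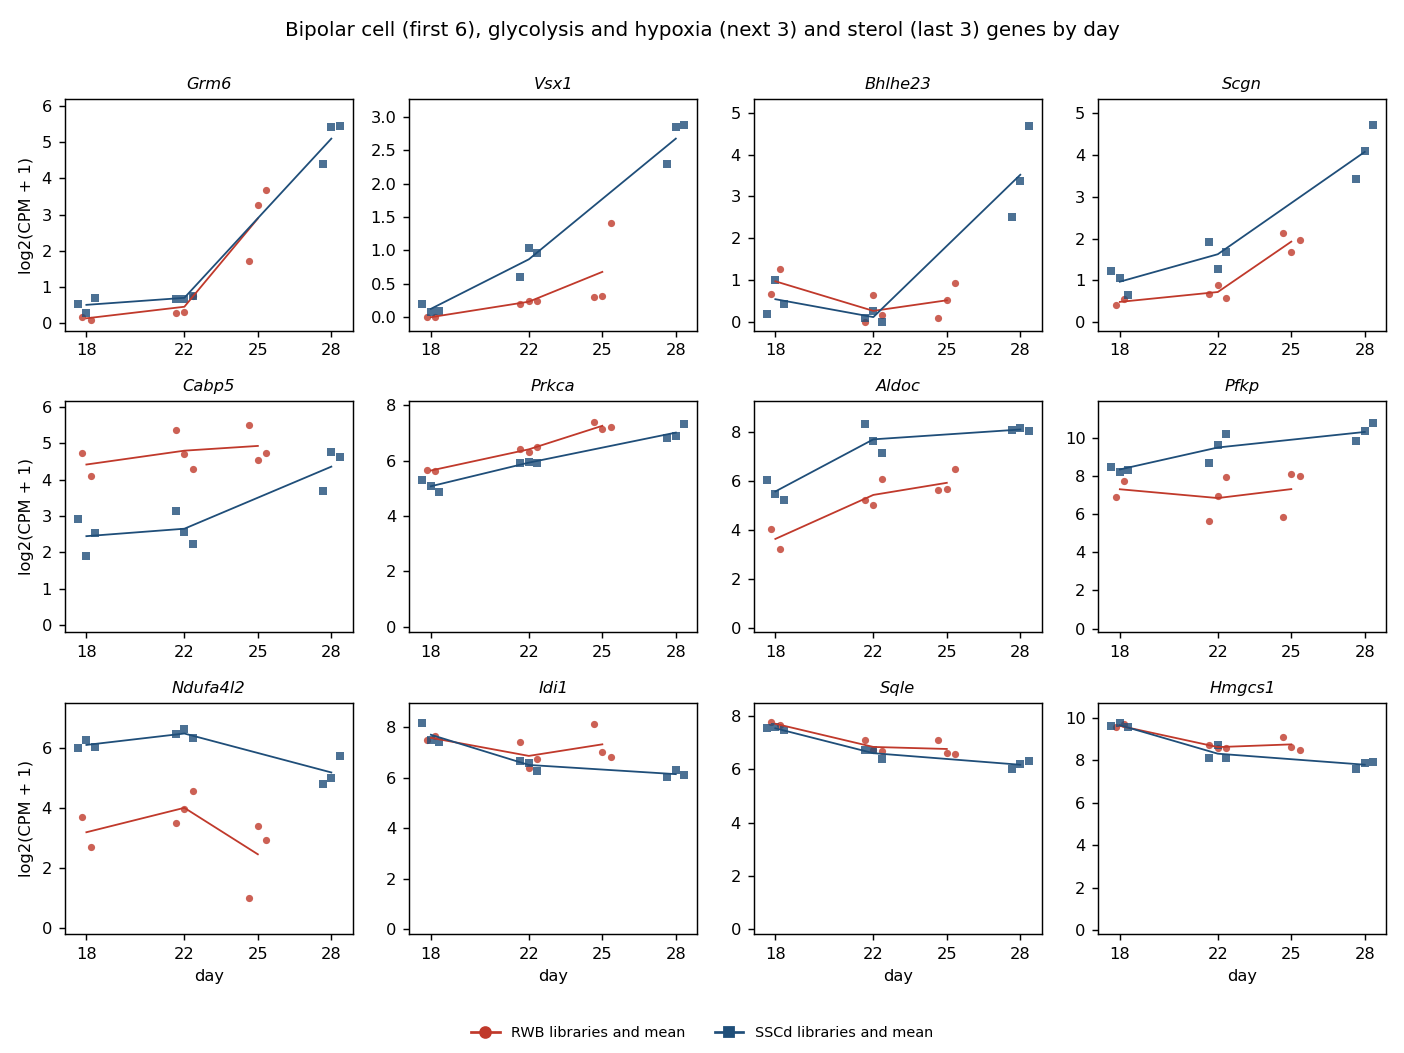
Levels of 6 bipolar cell, 3 hypoxia and glycolysis and 3 sterol genes, as log2(CPM + 1) on the y axis, against day on the x axis. Points are libraries, lines join group means, red circles are RWB and blue squares SSCd. Grm6 lies under 1 CPM in both methods at D22 and between 20.2 and 42.7 CPM in SSCd at D28, while Aldoc in RWB lies below SSCd at each shared day.

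A few receptors of the inner retina were lower too. Gabrr1 and Gabrr2, GABA receptor subunits found on bipolar terminals, were lower (1.27, 0.81 and 2.51 against 8.44, 11.7 and 23.3 CPM, log2 fold change -3.22 ± 0.52, edgeR adjusted p = 0.00144; and 1.59, 0.997 and 2.3 against 3.02, 5.26 and 6.29 CPM, log2 fold change -1.57 ± 0.36, edgeR adjusted p = 0.0186). With Grm6 these were the 3 called of 28 glutamate, GABA and glycine receptors (10.7%, against 3.06% of all genes tested). All 3 were lower, and the list's median was -0.39. Cplx2, a complexin of conventional synapses, was higher (998, 896 and 1090 against 570.4, 333 and 432 CPM, log2 fold change 1.16 ± 0.22, edgeR adjusted p = 0.0057). With Slc17a7 it made up the 2 called of 25 presynaptic genes (8%, against 3.06% of all genes tested). Gabrr1 and Cplx2 passed in all 6 fits that left out 1 endpoint library. Among these fits, calls were lost for Gabrr2 without RWB D25 replicates 1 or 2 or SSCd D28 replicates 2 or 3 (highest adjusted p 0.0811).

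Other inner retinal neurons showed few calls. Of 20 ganglion cell genes 2 were lower (10%, against 3.06% of all genes tested), Rbpms (2.38, 2.55 and 2.83 against 5.99, 12.1 and 10.2 CPM, log2 fold change -1.86 ± 0.37, edgeR adjusted p = 0.00688) and Sncg (1.43, 2.06 and 1.12 against 8.27, 15.2 and 3.96 CPM, log2 fold change -2.58 ± 0.51, edgeR adjusted p = 0.0073), both of which mark most ganglion cells. The ganglion cell factors Pou4f1 and Pou4f2 were low everywhere (2.78, 2.93 and 1.34 against 3.54, 8.85 and 1.84 CPM and 0, 0.81 and 0.107 against 0.856, 1.85 and 0.478 CPM) and were not called (edgeR adjusted p = 0.303 and 0.254). Of 21 amacrine genes 1 was called, near the 3.06% of all genes tested. It was Tfap2c, lower (12.4, 12.7 and 15.6 against 20, 24.1 and 31.9 CPM, log2 fold change -0.90 ± 0.20, edgeR adjusted p = 0.0165). None of 11 horizontal cell genes was called by edgeR, with a median of -0.75, but 3 were lower with the block and 3 by DESeq2. The call held for Rbpms and Sncg whichever endpoint library was left out. The call was lost for Tfap2c without RWB D25 replicates 1 or 2 or SSCd D28 replicate 3 (highest adjusted p 0.0887).

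Of 20 genes of Müller glia, the radial support cells of the retina, 1 was called, near the 3.06% of all genes tested. Dbi, an acyl-CoA-binding protein, was higher in RWB (378, 166 and 212 against 111, 129 and 66.1 CPM, log2 fold change 1.30 ± 0.32, edgeR adjusted p = 0.03). The markers Rlbp1, Glul and Slc1a3 were not called (89.1, 87.1 and 85.5 against 77.5, 77.4 and 47.3 CPM, 198, 175 and 262 against 257, 196 and 246 CPM and 82.6, 78.5 and 178 against 63.4, 102 and 64 CPM; edgeR adjusted p = 0.448, 0.707 and 0.358). None of 15 reactive glia genes was called by edgeR, and DESeq2 called 1 lower. Calls lost were those of Dbi without RWB D25 replicate 1 or SSCd D28 replicates 1 or 3 (highest adjusted p 0.221).

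Some genes of glycolysis and of the response to low oxygen were lower in RWB D25. Cells short of oxygen stabilise the HIF factors, which raise glucose uptake, glycolytic enzymes and the prolyl hydroxylases that mark HIF for decay. Of 36 such genes 7 were lower and none higher, with a median log2 fold change of -0.91, and 12 were lower with the replicate block. Pfkp, a phosphofructokinase, was at 55.5, 276 and 253 CPM in the RWB libraries and 891, 1296 and 1734 CPM in the SSCd libraries (log2 fold change -2.75 ± 0.54, edgeR adjusted p = 0.00688). Aldoc, an aldolase, was at 47.9, 49.5 and 88.6 CPM in the RWB libraries and 273, 286 and 261 CPM in the SSCd libraries (log2 fold change -2.14 ± 0.33, edgeR adjusted p = 0.00118). Gpi1, glucose-6-phosphate isomerase, was at 447, 953 and 721 CPM in the RWB libraries and 1295, 1510 and 2252 CPM in the SSCd libraries (log2 fold change -1.25 ± 0.24, edgeR adjusted p = 0.00659). The groups were separate in all 3, and RWB replicate 1 was the lowest library in each.

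Further along glycolysis, Pgk1 had 1102, 1243 and 695 against 1612, 2065 and 2297 CPM (log2 fold change -0.97 ± 0.23, edgeR adjusted p = 0.0246) and Pgam1 had 717, 796 and 609 against 1004, 1185 and 1703 CPM (log2 fold change -0.88 ± 0.22, edgeR adjusted p = 0.0353). The prolyl hydroxylases Egln3 and Egln1 had 7.22, 24 and 17.9 against 35.9, 90.5 and 121 CPM (log2 fold change -2.32 ± 0.49, edgeR adjusted p = 0.0108) and 64.9, 174 and 98.7 against 168, 255 and 326 CPM (log2 fold change -1.15 ± 0.30, edgeR adjusted p = 0.0391). Egln1 overlapped, since RWB replicate 2 lay above SSCd replicate 1. Ldha, lactate dehydrogenase A, was not called (4158, 3926 and 2903 against 4271, 4133 and 3826 CPM, edgeR adjusted p = 0.818), nor were Gapdh (-0.80, adjusted p = 0.0576 by edgeR), Aldoa (-0.81, adjusted p = 0.0759) or Vegfa, the vessel growth factor (168, 454 and 333 against 420.3, 631 and 652 CPM, edgeR adjusted p = 0.178). The summed level of the list was 15980 to 24700 CPM in RWB and 28660 to 34990 CPM in SSCd. Without RWB D25 replicate 1 the count was 3, without replicate 2 it was 17 and without replicate 3 it was 4. It was 4 without SSCd D28 replicate 2, and 3 to 17 over all 6 fits. With the 6 endpoint libraries alone it was 1. With 1 endpoint library left out at a time, Pfkp, Aldoc and Gpi1 passed in every one of the 6 fits. Left-out fits lost the call of Egln3 without RWB D25 replicate 1 (highest adjusted p 0.068); Egln1, Pgk1 and Pgam1 without RWB D25 replicates 1 or 3 or SSCd D28 replicates 2 or 3 (highest adjusted p 0.173, 0.0912 and 0.173). Against the interpolated level 12 were lower and none higher, with a median of -0.81, among them the glucose transporter Slc2a1 (-1.20, adjusted p = 0.0424 by edgeR) and the kinase Pdk1, which turns pyruvate away from mitochondria (-1.42, adjusted p = 0.0128).

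Cox4i2 and Ndufa4l2, variant subunits tied to the respiratory chain that are known to rise in low oxygen, were lower as well. Cox4i2 was at 3.73, 19.7 and 8.39 CPM in the RWB libraries and 54.1, 61.2 and 99.8 CPM in the SSCd libraries (log2 fold change -2.75 ± 0.43, edgeR adjusted p = 0.00133) and Ndufa4l2 at 1.03, 9.65 and 6.68 CPM in the RWB libraries and 26.8, 30.9 and 52.3 CPM in the SSCd libraries (log2 fold change -2.64 ± 0.49, edgeR adjusted p = 0.00485). No RWB library reached the lowest SSCd library in either. Cox4i2 and Ndufa4l2 passed in all 6 fits that left out 1 endpoint library. None of 26 nuclear respiratory chain genes was called by edgeR (median 0.58, and 0.13 without RWB D25 replicate 1). None of 13 mitochondrially encoded genes was called (median 1.61, and 0.52 without that library). With the block 1 nuclear and 3 mitochondrial genes were higher, and DESeq2 called 1 mitochondrial gene higher.

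Some genes of sterol synthesis were higher in RWB D25, and 6 of the 7 calls were lost without its replicate 1. Of 25 genes 7 were higher and none lower, with a median of 0.44. Hmgcs1, which makes HMG-CoA at the head of the pathway, was at 549, 397 and 362 CPM in the RWB libraries and 189, 232 and 244 CPM in the SSCd libraries (log2 fold change 0.98 ± 0.18, edgeR adjusted p = 0.00532). Idi1, the isoprenoid isomerase, was at 279.5, 127 and 111 CPM in the RWB libraries and 63.4, 77.4 and 67.8 CPM in the SSCd libraries (log2 fold change 1.31 ± 0.30, edgeR adjusted p = 0.0194). Cyp51, a sterol demethylase, was at 324, 170.3 and 198 CPM in the RWB libraries and 117, 117 and 109.9 CPM in the SSCd libraries (log2 fold change 1.01 ± 0.20, edgeR adjusted p = 0.00876). Replicate 1 was the highest RWB library for each. Fdft1, Nsdhl, Fdps and Sqle were also called (1.02, 1.01, 0.89 and 0.61, edgeR adjusted p = 0.0124, 0.00688, 0.0169 and 0.0346). Without RWB D25 replicate 1 the count was 1, Hmgcs1 (0.76, edgeR adjusted p = 0.0469), and the median was 0.38. The count was 3 without SSCd D28 replicate 2 and 0 with the 6 endpoint libraries alone. The call held for Hmgcs1 whichever endpoint library was left out. Single left-out libraries ended the call of Nsdhl and Cyp51 without RWB D25 replicate 1 (highest adjusted p 0.0725 and 0.0822); Fdft1 without RWB D25 replicate 1 or SSCd D28 replicate 2 (highest adjusted p 0.12). It was also lost for Fdps without RWB D25 replicate 1 or SSCd D28 replicates 2 or 3 (highest adjusted p 0.137); Idi1 without RWB D25 replicate 1 or SSCd D28 replicates 1, 2 or 3 (highest adjusted p 0.173). Further losses were Sqle without RWB D25 replicate 1 or SSCd D28 replicates 1 or 2 (highest adjusted p 0.245). Against the interpolated level 7 were higher and none lower.

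Fatty acid genes were divided, with 18.2% called, against 3.06% of all genes tested. Of 22, Acadl, a dehydrogenase of long-chain fatty acids, was higher (20.1, 9.41 and 17.5 against 7.82, 7.17 and 5.26 CPM, log2 fold change 1.21 ± 0.32, edgeR adjusted p = 0.0429). Lower were Cpt1a, which admits fatty acids to mitochondria (29.5, 33.5 and 37.3 against 116, 79.6 and 63.9 CPM, log2 fold change -1.37 ± 0.30, edgeR adjusted p = 0.0155), Acadvl, which acts on very long chains (72.1, 116 and 82 against 268, 236 and 88.8 CPM, log2 fold change -1.14 ± 0.28, edgeR adjusted p = 0.0303), and Plin2, a coat protein of lipid droplets (7.22, 14.6 and 9.35 against 22, 20.9 and 20.6 CPM, log2 fold change -1.02 ± 0.19, edgeR adjusted p = 0.0055). The groups overlapped only for Acadvl among these 4. Of 24 serine synthesis and ATF4 response genes 3 were lower (12.5%, against 3.06% of all genes tested), Nupr1 (2.22, 2.55 and 2.88 against 21.1, 19.6 and 16.2 CPM, log2 fold change -2.88 ± 0.33, edgeR adjusted p = 9.11e-05), Vldlr (194, 280.4 and 182 against 309, 431 and 370.3 CPM, log2 fold change -0.76 ± 0.20, edgeR adjusted p = 0.0401) and Fgf21, which was under 1 CPM in every library. Atf4 was not called (edgeR adjusted p = 0.408). Leaving out any 1 endpoint library kept the call of Plin2 and Nupr1. Among these fits, calls were lost for Acadl without RWB D25 replicates 1 or 3 or SSCd D28 replicates 1, 2 or 3 (highest adjusted p 0.197); Cpt1a without RWB D25 replicate 1 or SSCd D28 replicate 1 (highest adjusted p 0.0844). The call also went for Acadvl without RWB D25 replicates 1 or 3 or SSCd D28 replicates 1 or 2 (highest adjusted p 0.149); Vldlr and Fgf21 without RWB D25 replicates 1 or 3 or SSCd D28 replicates 2 or 3 (highest adjusted p 0.164 and 0.0901).

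Retinoic acid is made from vitamin A by the Aldh1a enzymes and broken down by the Cyp26 enzymes. Cyp26b1, one of those that break it down, was at 0.634, 1.12 and 1.98 CPM in the RWB libraries and 10.3, 13.3 and 25.8 CPM in the SSCd libraries, 12.8-fold lower in RWB (log2 fold change -3.68 ± 0.48, edgeR adjusted p = 0.000261). Dhrs3, which turns retinaldehyde back to retinol, was at 7.06, 10.2 and 8.65 CPM in the RWB libraries and 71.5, 73.1 and 72.3 CPM in the SSCd libraries (log2 fold change -3.06 ± 0.41, edgeR adjusted p = 0.000311), and its RWB and SSCd values each lay within a narrow range. Of 14 genes 3 were lower, with Crabp2, a carrier of retinoic acid (4.92, 5.79 and 2.67 against 8.33, 22.9 and 7.58 CPM, log2 fold change -1.54 ± 0.39, edgeR adjusted p = 0.0346), and 1 was higher, the carrier Crabp1 (114, 116 and 129 against 61.6, 61.2 and 68.4 CPM, log2 fold change 0.91 ± 0.22, edgeR adjusted p = 0.0292). Aldh1a1, the dorsal enzyme of the retina, was not called (51.9, 47.3 and 10.5 against 56, 69.4 and 63.9 CPM, edgeR adjusted p = 0.409). Of 15 dorsal and ventral patterning genes 1 was called, against 3.06% of all genes tested, too few to describe the list. It was the dorsal factor Tbx5, lower (2.85, 4.11 and 2.56 against 9.81, 5.98 and 19.7 CPM, log2 fold change -1.89 ± 0.41, edgeR adjusted p = 0.0126). With 1 endpoint library left out at a time, Cyp26b1 and Dhrs3 passed in every one of the 6 fits. The call was lost for Crabp2 without RWB D25 replicates 1 or 3 or SSCd D28 replicate 2 (highest adjusted p 0.238); Crabp1 without RWB D25 replicates 1, 2 or 3 or SSCd D28 replicates 1, 2 or 3 (highest adjusted p 0.0956). Further losses were Tbx5 without RWB D25 replicate 1 or SSCd D28 replicate 3 (highest adjusted p 0.0836).

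Counts of progenitor and division genes differed between the endpoint and the interpolated comparison. At the endpoint 2 of 29 progenitor genes were lower (6.9%, against 3.06% of all genes tested), among them Gadd45a (23.5, 14.9 and 12.8 against 50.7, 42.5 and 21.9 CPM, log2 fold change -1.17 ± 0.26, edgeR adjusted p = 0.0153), whose groups overlapped, with a list median of 0.09. In the interpolated comparison 11 were lower and none higher (median -0.71), among them Ccnd1, the cyclin of dividing progenitors (-1.40, adjusted p = 0.000233 by edgeR), and Sfrp2, a Wnt inhibitor of the early retina (-2.02, adjusted p = 0.0138). Of 30 cell cycle genes 3 were higher at the endpoint (10%, against 3.06% of all genes tested), Bub1b (27.2, 19.5 and 22.4 against 9.36, 14.9 and 7.31 CPM, log2 fold change 1.12 ± 0.22, edgeR adjusted p = 0.00737), Tyms (48.1, 28.5 and 20.7 against 12.8, 15.1 and 10.9 CPM, log2 fold change 1.32 ± 0.32, edgeR adjusted p = 0.0274) and Ccnb1 (22, 28.6 and 16.1 against 9.81, 14.2 and 5.54 CPM, log2 fold change 1.17 ± 0.30, edgeR adjusted p = 0.0401). The list's median was 0.73, and 8 were higher with the block and 7 by DESeq2. In the interpolated comparison none was higher and 3 were lower. Mki67, the usual marker of dividing cells, was not called (30.8, 83.6 and 44.3 against 29.4, 47.7 and 13.8 CPM, edgeR adjusted p = 0.274). Calls lost were those of Gadd45a without RWB D25 replicates 2 or 3 or SSCd D28 replicates 1 or 2 (highest adjusted p 0.0866); Bub1b without RWB D25 replicate 1 (highest adjusted p 0.0548). Also lost were Tyms without RWB D25 replicate 1 or SSCd D28 replicates 1, 2 or 3 (highest adjusted p 0.206); Ccnb1 without RWB D25 replicates 1 or 2 or SSCd D28 replicates 1 or 3 (highest adjusted p 0.157).

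The lists of other cell types differed in which libraries were high. The summed level of 19 mesenchyme and matrix genes was 307 to 413 CPM in RWB and 424 to 889 CPM in SSCd, and none was called by edgeR while DESeq2 called 5 lower. Col1a2, a collagen of fibroblasts, was high in SSCd replicates 1 and 2 only (5.47, 2.99 and 2.03 against 58.9, 76.6 and 6.9 CPM). The summed level of 15 pigment epithelium genes was 81.7 to 1147 CPM in RWB and 84.6 to 460 CPM in SSCd, highest in replicate 1 of each group. Of the 15, 1 was called (6.7%, against 3.06% of all genes tested), Lrat, lower (0.238, 0.436 and 0.534 against 12.1, 2.21 and 1.57 CPM, log2 fold change -3.67 ± 0.76, edgeR adjusted p = 0.00977). Of 11 surface epithelium genes 3 were lower, Krt18 (5.79, 3.55 and 3.63 against 37, 27.1 and 37.6 CPM, log2 fold change -2.98 ± 0.48, edgeR adjusted p = 0.00163), Epcam (0.952, 1.56 and 0.534 against 3.25, 4.78 and 2.87 CPM, log2 fold change -1.84 ± 0.41, edgeR adjusted p = 0.0157) and Tfap2c, and the summed level was 27 to 33.5 against 77.5 to 90.1 CPM, higher in all 3 SSCd libraries than in any RWB library. Choroid plexus genes summed to 659 to 1886 and 695 to 849 CPM, and of 13 the growth factor Igf2 (36.2, 26.8 and 33 against 83.1, 154 and 89.4 CPM, log2 fold change -1.76 ± 0.34, edgeR adjusted p = 0.0057), the bicarbonate transporter Slc4a5 (-1.25, edgeR adjusted p = 0.0379) and Kcne2 were lower. The 10 microglia and blood cell genes summed to 17.6 to 20.8 and 20.8 to 21.9 CPM. Such sums can rest on a few abundant genes and do not measure how much of a tissue was present. Krt18 and Tfap2c made up most of the surface epithelium sum in every endpoint library, and Tfap2c is also on the amacrine list. Of the 20 genes listed for surface epithelium, 11 were tested. The pigment epithelium and choroid plexus lists had the same highest log2 fold change (3.36). The part of these cell types in the results above was not tested. The call held for Krt18 and Igf2 whichever endpoint library was left out. Left-out fits lost the call of Lrat without RWB D25 replicate 1 or SSCd D28 replicate 1 (highest adjusted p 0.0891); Epcam without RWB D25 replicates 1 or 3 or SSCd D28 replicate 2 (highest adjusted p 0.0769). Others lost were Slc4a5 without RWB D25 replicates 1, 2 or 3 or SSCd D28 replicates 1 or 2 (highest adjusted p 0.187).

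At D22, the last day both methods were sampled, 318 genes differed between RWB and SSCd (1.89%), 68 higher in RWB (0.405%) and 250 lower (1.49%). The total was 143 and 98 without RWB D22 replicate 1 or 2, and 153 and 185 without SSCd D22 replicate 1 or 2. Of the 318, 183 were also called at the endpoint, each in the same direction, which is 57.5% of the D22 calls and 35.7% of the endpoint calls. The comparisons share no library, but same-numbered libraries of D22 and the endpoint deviated together (correlations of deviations 0.351 to 0.759 in RWB and 0.4 to 0.563 in SSCd), so they are not independent. At D22 9 rod genes were lower, 14 hypoxia and glycolysis genes were lower, 4 cone genes were higher with 1 lower, and 2 bipolar genes were higher with 2 lower. No sterol gene was called at D22. Gnat2 had 139 ± 52.6 CPM in RWB and 20.9 ± 10 CPM in SSCd (SD, n = 3 each) at D22 (edgeR adjusted p = 0.00375), and Slc24a1 had 3.69 ± 0.459 CPM in RWB and 31.2 ± 17.2 CPM in SSCd (SD, n = 3 each) (adjusted p = 0.000658). Opn1sw had 109.5 ± 49.6 CPM in RWB and 46 ± 24 CPM in SSCd (SD, n = 3 each) and was not called at D22 (log2 fold change 1.25 ± 0.47, edgeR adjusted p = 0.225). Cyp26b1 had 2.21 ± 0.577 CPM in RWB and 16.1 ± 5.22 CPM in SSCd (SD, n = 3 each) (edgeR adjusted p = 0.00318).

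Whether a difference had changed from D22 to the endpoint was tested directly, and edgeR called no gene (0%; 450 genes at an unadjusted p under 0.05, 2.68%). DESeq2 called 5, 3 higher and 2 lower. The simulated test recovered 9% of 2-fold and 62% of 4-fold changes in that comparison, so a change of moderate size could pass unseen. For Opn1sw, called at the endpoint only, the change was 1.96 ± 0.67 on the log2 scale (edgeR adjusted p = 1), and for Bhlhe23 it was -5.99 ± 1.46 (adjusted p = 1). A gene called at one time and not at the other was therefore not shown to have changed its difference.

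**Figure D4:**
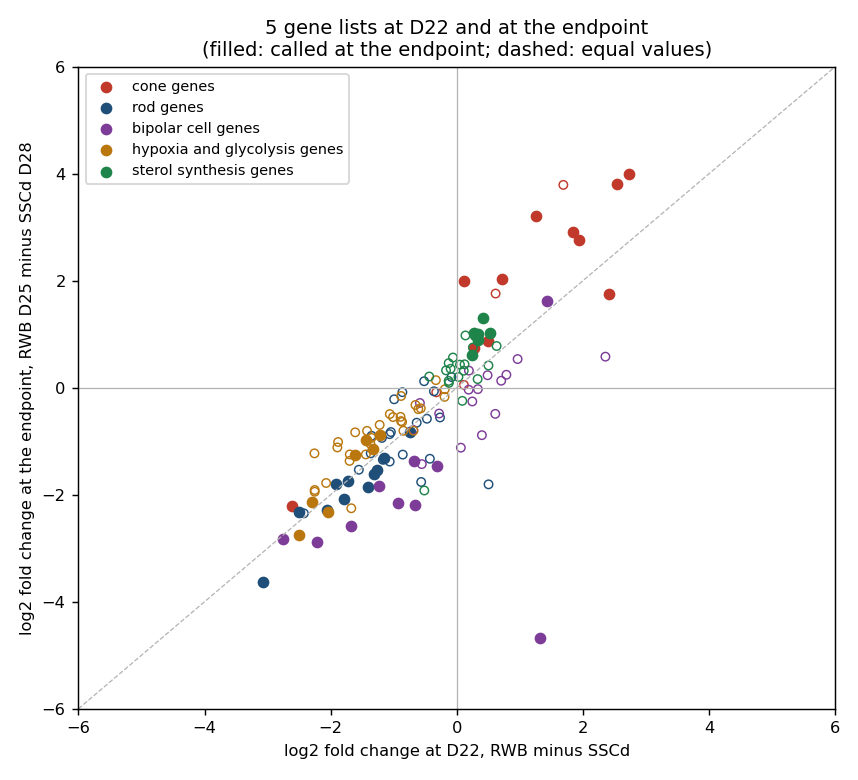
Log2 fold change of RWB minus SSCd at D22 (x axis) and of RWB D25 minus SSCd D28 (y axis) for genes of 5 lists, coloured by list. Filled points were called at the endpoint, and the dashed line marks equal values. Cone genes lie mostly above the line at the upper right, rod and hypoxia genes at the lower left, and Bhlhe23 at -4.67 below the others.

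Outside the lists, the steepest called genes by the naming rule began with Pcdh15, a protocadherin of photoreceptors and hair cells, higher in RWB at 194, 264 and 187 CPM in the RWB libraries and 32, 26.2 and 15.4 CPM in the SSCd libraries (log2 fold change 3.13 ± 0.31, edgeR adjusted p = 3.51e-05). Tmem158 (93.7, 56.9 and 65.2 against 18, 10.6 and 5.26 CPM, log2 fold change 2.67 ± 0.38, edgeR adjusted p = 0.000508), Klhl4 (62.9, 15.6 and 17.3 against 6.62, 5.14 and 4.92 CPM, log2 fold change 2.52 ± 0.45, edgeR adjusted p = 0.00319), the gene model Gm8189 (25.4, 31.9 and 28.1 against 5.08, 3.77 and 6.08 CPM, log2 fold change 2.52 ± 0.44, edgeR adjusted p = 0.00301) and Slc24a2 (92, 23.5 and 22.8 against 11.9, 12.6 and 5.12 CPM, log2 fold change 2.22 ± 0.57, edgeR adjusted p = 0.0371) followed. Slc24a2 encodes the exchanger of cones, the counterpart of the rod gene Slc24a1. The 2 exchangers thus lay on opposite sides, 2.22 and -3.64 on the log2 scale. Among lower genes were Plk5, a kinase (1.27, 4.67 and 7.11 against 54.2, 41.1 and 24.6 CPM, log2 fold change -3.18 ± 0.45, edgeR adjusted p = 0.000473), Glb1l2 (10.6, 18.6 and 13.5 against 149.9, 146 and 57.5 CPM, log2 fold change -3.05 ± 0.37, edgeR adjusted p = 0.000168), 2610528A11Rik (3.09, 10.2 and 8.01 against 19, 58.4 and 58.1 CPM, log2 fold change -2.66 ± 0.46, edgeR adjusted p = 0.00276) and the potassium channel Kcnj14 (5.87, 2.87 and 2.78 against 46.4, 19.3 and 6.36 CPM, log2 fold change -2.65 ± 0.63, edgeR adjusted p = 0.0246). Leaving out any 1 endpoint library kept the call of Pcdh15, Tmem158, Klhl4, Gm8189, Plk5, Glb1l2 and 2610528A11Rik. Lost in turn were the calls of Slc24a2 without RWB D25 replicate 1 or SSCd D28 replicates 1, 2 or 3 (highest adjusted p 0.359); Kcnj14 without RWB D25 replicates 2 or 3 or SSCd D28 replicate 1 (highest adjusted p 0.158).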

How the data were processed

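Polyadenylated RNA of retinal organoids was sequenced from stranded paired-end libraries, per the labels' protocols and the series' design text. Samples were grouped by the method and day in their titles, which also carry the replicate numbers. Repeated experiments count as biological replicates in the design text. Nothing says that they were separate cell lines or days, so p-values measure the spread between these samples.

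Per the submitters' processing notes, GRCm38.p5, kallisto 0.42.5, limma 3.32.2 and edgeR 3.13.9 were used, with no role or order given. The authors deposited estimated counts per gene, not normalized, for 33846 genes, of which 42.1% of values are whole. Whether strand was used in the estimation is not given in the sources used here, so genes that overlap another on the opposite strand (Pde6h, Opn1sw, Gngt2, Rgs11, Cacna2d4, Acadvl, Aldoa and Cdh23 among them), and genes with near-identical copies, are uncertain. Symbols were found for 33331 genes. Gene positions are from GENCODE M21.

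Counts were rounded, filtered with filterByExpr (16792 genes left) and TMM-scaled, and all 24 libraries in 9 group means were fitted with edgeR 4.0.16 under R 4.3.3 (quasi-likelihood, robust; median biological coefficient of variation 0.256). All groups share 1 estimate of the spread because groups of 3 give a poor one. The main test thus assumes that the endpoint groups vary like the others. RWB D25 libraries correlated at 0.845 to 0.959 with each other and SSCd D28 libraries at 0.921 to 0.974. The shared spread could therefore be too small for RWB D25. The fit of the 6 endpoint libraries alone called 39 genes, but has fewer libraries to estimate the spread. P-values are Benjamini-Hochberg adjusted over all genes tested, with a threshold of 0.05, and each standard error was computed as |log2 fold change| / sqrt(F). The variance between pairs of replicates was 31.3 to 273 times that of counting noise. This is a mean over genes with a mean count of at least 100, scaled by library totals without TMM, so abundant genes can weigh heavily in it. Where a group held at most 3 raw counts of a gene, no fold is given.

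The members, the 41 gene lists (768 genes, 715 tested) and the tests were chosen with earlier results of these data known. Lists are described by counts and medians, with no test. Named genes are up to 10 per direction with the steepest called endpoint difference (mean log2 CPM of at least 3, no overlap) and up to 5 for the other contrasts, a panel of 36, and of each list the called members with the smallest p and the uncalled ones with the highest level. The text gives a selection, and named genes outside these are examples chosen after their values were seen. Some members are not reported here.

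Same-numbered libraries of RWB D25 and SSCd D28 deviated together over 10880 genes (correlations of deviations 0.209, 0.111 and 0.373), so the replicate number was also fitted as a block. Over all genes tested the correlations were 0.165, 0.059 and 0.221, no label says what a number shares, and RWB D25 replicate 1 deviated more with SSCd D28 replicate 2 (0.271) than with replicate 1. On simulated counts for 16449 genes the endpoint test recovered 32% of 2-fold and 86% of 4-fold changes, with 5 of 123 calls false. For the interpolated test these were 49% and 93%, with 10 of 152 false. Alternatives were RLE scaling, mitochondrial genes left out, no filter or a stricter filter, DESeq2 1.42.0, limma-voom (limma 3.58.1), the block, the 6 endpoint libraries alone, and libraries left out. Promoters are RefSeq's for GRCm38.p6, taking the start nearest to the GENCODE gene start.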

Additional observations from a re-analysis of the deposited data

How the results depend on the processing

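RLE scaling, leaving mitochondrial genes out of the scaling, both other filters and limma-voom kept each count of called genes within 1.5 times, except for limma-voom on the hypoxia and glycolysis list (11 lower against 7). DESeq2 called 1069 genes at the endpoint (423 higher, 646 lower), 1501 in the interpolated comparison, 5 for the change from D22, 659 at D22, and 15 hypoxia and glycolysis genes. With the replicate block, which rests on the pairing by replicate number, 997 were called at the endpoint (434 higher, 563 lower), 1498 in the interpolated comparison and 12 hypoxia and glycolysis genes, while the cone, rod, bipolar and sterol counts stayed within 1.5 times. Of the smaller counts, the block moved cell cycle genes higher from 3 to 8, ribbon synapse genes lower from 3 to 5, ganglion cell genes lower from 2 to 4, horizontal cell genes lower from 0 to 3, and fatty acid genes higher from 1 to 3. The 6 endpoint libraries fitted alone gave 39 (13 higher, 26 lower), with 3 cone genes higher, 1 rod gene, 0 bipolar genes and 1 hypoxia and glycolysis gene lower, and 0 sterol genes higher. Without both libraries numbered 1, 128 genes were called (41 higher, 87 lower), with 6 cone, 3 rod, 4 hypoxia and glycolysis and 0 sterol genes. The cause of these shifts was not tested, beyond the smaller number of libraries in the last 2 fits.

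With 1 library left out at a time, the endpoint gave 192 to 637 genes, 64 to 300 higher and 128 to 337 lower. The interpolated comparison gave 432 to 916, D22 98 to 310 and the change from D22 0 in each. The lists gave 7 to 10 cone genes higher, 7 to 14 rod, 6 to 8 bipolar and 3 to 17 hypoxia and glycolysis genes lower, and 1 to 8 sterol genes higher. A fit that leaves a group 2 libraries assumes that they vary like the other groups.

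Uncalled genes that changed sign, on the log2 scale, were these. Cabp5 (0.58) was at -0.059 without both libraries numbered 1. Crx (0.075) was at -0.086 to 0.23 with 1 library left out. Rxrg (-0.086) was at -0.43 to 0.24 with 1 library left out. Sag (-0.067) was at 0.12 with limma-voom, 0.099 with the replicate block, 0.30 without both libraries numbered 1 and -0.44 to 0.26 with 1 library left out. Thrb (0.053) was at -0.13 to 0.24 with 1 library left out. None of these genes was called at the endpoint. At this depth and with 3 libraries a group, differences near 2-fold were mostly missed in simulated counts. Those counts held 100 changed genes at each fold and independent libraries, with no outlier and no shared replicate effect. The share missed in the real data is therefore not known. A count of 0 is no sign of equal levels.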

Other observations

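The genes below were chosen after their values were seen. Pcdh15 and Cdh23 encode the 2 cadherins that join as the tip link of hair cells, and both are also found in photoreceptors. They lay on opposite sides at the endpoint. Cdh23 was at 0, 0.81 and 0.908 CPM in the RWB libraries and 10.6, 11.7 and 22.1 CPM in the SSCd libraries, lower in every RWB library (log2 fold change -4.61 ± 0.92, edgeR adjusted p = 0.00778), whereas Pcdh15 was higher (3.13). Myo7a, a motor protein, was lower (6.11, 10.4 and 11.9 against 34.2, 26.1 and 25.6 CPM, log2 fold change -1.59 ± 0.29, edgeR adjusted p = 0.00445), while Whrn (16.5, 45 and 53.1 against 84.9, 84.3 and 53.9 CPM, edgeR adjusted p = 0.112) was not called. Cdh23 overlaps 2 genes on the opposite strand, so its level is uncertain. With 1 endpoint library left out at a time, Cdh23 and Myo7a passed in every one of the 6 fits.

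Nicotinic acetylcholine receptor subunits Chrna3, Chrnb4 and Chrna5, which sit side by side on chromosome 9 (chr9:55010111-55026562, chr9:55028154-55048779 and chr9:54980880-55007779, GRCm38), were all higher in RWB D25. Chrna3 had 29.7, 27.4 and 23.2 against 9.18, 7.35 and 8.47 CPM (log2 fold change 1.68 ± 0.23, edgeR adjusted p = 0.000328), Chrnb4 had 83.8, 72.6 and 127 against 43.4, 19.9 and 15.2 CPM (log2 fold change 1.85 ± 0.37, edgeR adjusted p = 0.00774) and Chrna5 had 14.7, 7.97 and 7.64 against 5.53, 4.07 and 4.03 CPM (log2 fold change 1.15 ± 0.30, edgeR adjusted p = 0.0413). Chrnb1, on another chromosome, was lower (3.25, 6.23 and 5.39 against 14.5, 14.9 and 13.9 CPM, log2 fold change -1.53 ± 0.30, edgeR adjusted p = 0.00688). A few immune genes were lower in RWB, with H2-K1, a class I histocompatibility heavy chain, at 4.84, 15.3 and 12.4 against 41.8, 49 and 48.4 CPM (log2 fold change -2.09 ± 0.39, edgeR adjusted p = 0.00484), the class II gene H2-Ab1 at 1.03, 3.61 and 2.88 against 8.84, 13.9 and 25 CPM (log2 fold change -2.65 ± 0.46, edgeR adjusted p = 0.00271) and complement C3 at 0.555, 1.31 and 1.44 against 6.16, 8.97 and 16.8 CPM (log2 fold change -3.24 ± 0.63, edgeR adjusted p = 0.00677). H2-K1 was the only called gene of the 18 class I and interferon genes (5.556%, against 3.06% of all genes tested). Of these 18, 10 had a negative and 8 a positive log2 fold change. The class I genes H2-D1 (65, 38.5 and 71 against 62.7, 55.9 and 60.6 CPM) and B2m (34.5, 14.1 and 13.9 against 25.7, 23.1 and 12.8 CPM) overlapped between the groups. Of 19 clock genes 3 were lower (15.8%, against 3.06% of all genes tested), among them Dbp (20.1, 21.2 and 19.6 against 39.9, 43.2 and 41.5 CPM, log2 fold change -1.03 ± 0.17, edgeR adjusted p = 0.00151) and Cry2 (33.1, 49.6 and 50.1 against 71.2, 64.6 and 85.6 CPM, log2 fold change -0.74 ± 0.17, edgeR adjusted p = 0.0182). The hour of collection is not given in the sources used here. Mtnr1a, a melatonin receptor, was higher in RWB (10.3, 1.99 and 1.39 against 0.171, 0.179 and 0.0683 CPM, log2 fold change 4.92 ± 0.85, edgeR adjusted p = 0.00275). Chrna3, Chrnb1, H2-K1, H2-Ab1, C3, Dbp and Mtnr1a passed in all 6 fits that left out 1 endpoint library. Among these fits, calls were lost for Chrnb4 without SSCd D28 replicate 2 (highest adjusted p 0.05); Chrna5 without RWB D25 replicate 1 or SSCd D28 replicates 1, 2 or 3 (highest adjusted p 0.278). The call also went for Cry2 without RWB D25 replicate 1 or SSCd D28 replicate 3 (highest adjusted p 0.0853).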
